A study of Mus musculus with 16 samples.

Results

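The 10 genes described here mark or drive the steps from spermatogonial differentiation to meiotic entry: Kit, Stra8, Gm4969, Sohlh1, Sohlh2, Dmrt1, Dmrtb1, Rhox13, Prss50 and Upp1. Gm4969 is an older name of Meiosin. They were taken by symbol from the 55414 gene IDs of the deposited tables, and all 10 were found and passed the filter on low values in every comparison. Their Ensembl IDs are ENSMUSG00000005672 (Kit), ENSMUSG00000029848 (Stra8), ENSMUSG00000085601 (Gm4969), ENSMUSG00000059625 (Sohlh1), ENSMUSG00000027794 (Sohlh2), ENSMUSG00000024837 (Dmrt1), ENSMUSG00000028610 (Dmrtb1), ENSMUSG00000050197 (Rhox13), ENSMUSG00000048752 (Prss50) and ENSMUSG00000020407 (Upp1). The study sequenced RNA from mouse testes at postnatal day 14 (P14) and 16 (P16), and compared a conditional knockout of Ythdc2 (cKO) with control and Cre control mice. Ythdc2 encodes an RNA helicase that germ cells need in meiosis. Per the labels' protocols, the mice were given tamoxifen (10 mg per ml) on both P12 and P13, which is the usual way to switch on an inducible Cre recombinase. The labels name the groups control, Cre control and Ythdc2 cKO, and give no promoter for the Cre, no strain and no further genotype of either control type. Each stage had 2 libraries of controls and 3 of cKO mice, and the Cre controls had 2 libraries at P14 and 4 at P16. Whether libraries of a group came from separate animals was not stated, so that p-values measure the spread between these libraries.

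Spermatogonia leave the self-renewing pool in response to retinoic acid, which the testis makes from vitamin A. Differentiating cells then carry the receptor KIT and depend on a network of germline transcription factors, among them SOHLH1, SOHLH2 and the DM-domain factors. A later response to retinoic acid brings in STRA8 and its partner MEIOSIN, which together turn on the genes of meiotic prophase. Their RNA is transient and is normally lost as cells move into prophase. At P14 and P16 a mouse testis holds spermatogonia together with the leading spermatocytes of the first wave, and also Sertoli, Leydig, peritubular and immune cells.

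The 250 bases before the start site of 4 members are shown because all 4 genes were lower in cKO than in the controls (not the Cre controls) at P16, and because Stra8 and Gm4969 encode the meiotic entry pair and the windows of Sohlh1 and Prss50 hold matches to the same motifs. The sequences are from RefSeq, build GRCm38.p6, which is not the build of the deposited files. They are read 5′ to 3′ on the strand of the gene. The windows are chr6:34920698-34920947 on the + strand for Stra8, chr7:19118345-19118594 on the - strand for Gm4969 (Bhmg1 in RefSeq), chr2:25847249-25847498 on the - strand for Sohlh1 and chr9:110857714-110857963 on the + strand for Prss50. Capitals mark 3 motifs on either strand: CACGTG, an E-box of the kind that basic helix-loop-helix proteins bind, CNCCTCAG, known as the STRA8 motif, and AGGTCA, the core of retinoic acid response elements.
Stra8: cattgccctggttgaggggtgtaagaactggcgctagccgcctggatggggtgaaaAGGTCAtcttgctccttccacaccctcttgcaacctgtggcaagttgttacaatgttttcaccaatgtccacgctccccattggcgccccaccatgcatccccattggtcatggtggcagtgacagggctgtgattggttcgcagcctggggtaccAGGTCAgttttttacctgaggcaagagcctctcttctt
Gm4969: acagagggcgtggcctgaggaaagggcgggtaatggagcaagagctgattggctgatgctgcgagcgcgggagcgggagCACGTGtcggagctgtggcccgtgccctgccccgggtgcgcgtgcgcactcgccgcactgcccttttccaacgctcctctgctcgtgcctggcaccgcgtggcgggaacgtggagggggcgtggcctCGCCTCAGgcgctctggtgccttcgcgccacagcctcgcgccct
Sohlh1: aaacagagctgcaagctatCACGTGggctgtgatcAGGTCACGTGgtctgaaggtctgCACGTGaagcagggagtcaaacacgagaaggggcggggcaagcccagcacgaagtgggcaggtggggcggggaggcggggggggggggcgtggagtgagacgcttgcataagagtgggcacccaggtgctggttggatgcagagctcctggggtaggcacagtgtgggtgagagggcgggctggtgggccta
Prss50: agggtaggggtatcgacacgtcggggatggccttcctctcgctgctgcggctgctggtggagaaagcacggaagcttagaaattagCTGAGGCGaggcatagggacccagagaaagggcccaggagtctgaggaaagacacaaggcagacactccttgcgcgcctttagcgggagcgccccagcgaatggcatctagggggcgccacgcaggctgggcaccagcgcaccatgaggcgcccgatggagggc
Stra8 carried 2 copies of AGGTCA. Gm4969 carried 1 CACGTG and 1 CNCCTCAG. Sohlh1 carried 3 copies of CACGTG, of which 1 overlapped its AGGTCA. Prss50 carried 1 CNCCTCAG, on the opposite strand. The members except Dmrt1 had an entry in the table of promoters, with 14 windows in all for 9 genes. CNCCTCAG was present in 5 of the 14 windows and in 6.42% of all 32851 windows. These 5 windows belong to 4 genes, Gm4969, Prss50, Sohlh2 and Upp1, and 2 of them are overlapping windows of Prss50 that hold the same match. CACGTG was present in 2 of the 14 windows and in 6.02% of all, and AGGTCA in 2 of the 14 and in 14% of all. A match describes letters only and is not a measured binding site.

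The 16 libraries held 31762725 to 66621310 reads each and 14494867 to 27531529 reads on genes. Ribosomal RNA was removed with a Ribo-Zero kit ("the first kit") from the controls and cKO libraries 1 and 2 of each stage. The Cre controls and cKO library 3 were depleted with a NEBNext kit ("the second kit"), so kit and control type cannot be told apart. Values below are the deposited normalized counts, which are scaled within each table, unless they are named as RPM, a gene's reads scaled to the total of gene reads in its library. Each member had at least 223 reads in every library except Upp1, which had 44 to 199. Ythdc2 itself was lower in every cKO library than in every control library of its table. At P16 it stood at 2666 and 2609 in controls and at 501.7 and 540.6 in cKO of the first kit. In GENCODE M21 no other gene overlapped a member on either strand.

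Levels per length, as RPM per kilobase of exon, spanned a wide range in controls. At P14, Dmrt1, a DM-domain transcription factor of spermatogonia and Sertoli cells, was highest with 77.5 ± 0.381 (SD, n = 2). Prss50, a testis serine protease, followed with 71.9 ± 3.33 (SD, n = 2), and Stra8 with 62.3 ± 3.12 (SD, n = 2). Rhox13, an X-linked homeobox gene of germ cells, stood at 42.5 ± 1.27 (SD, n = 2). Below it came, by the range of the libraries, Sohlh2 (27.0 to 27.5), Dmrtb1 (20.1 to 22.3), Sohlh1 (18.3 to 19.0), Kit (15.7 to 16.3) and Gm4969 (14.9 to 15.2). Upp1, which encodes uridine phosphorylase, was lowest with 2.82 ± 0.227 (SD, n = 2). No neighbours in this order overlapped between the 2 libraries. At P16 the control order changed in 3 places: Prss50 (74.1) stood above Dmrt1 (68.2), Dmrtb1 (29.7) above Sohlh2 (27.4), and Gm4969 (15.8) above Kit (13.2). In the cKO libraries of the first kit at P16, Prss50 stood at 23.6 ± 2.11 (SD, n = 2) and overlapped Dmrtb1 at 24.6 ± 0.698 (SD, n = 2).

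**Figure D1:**
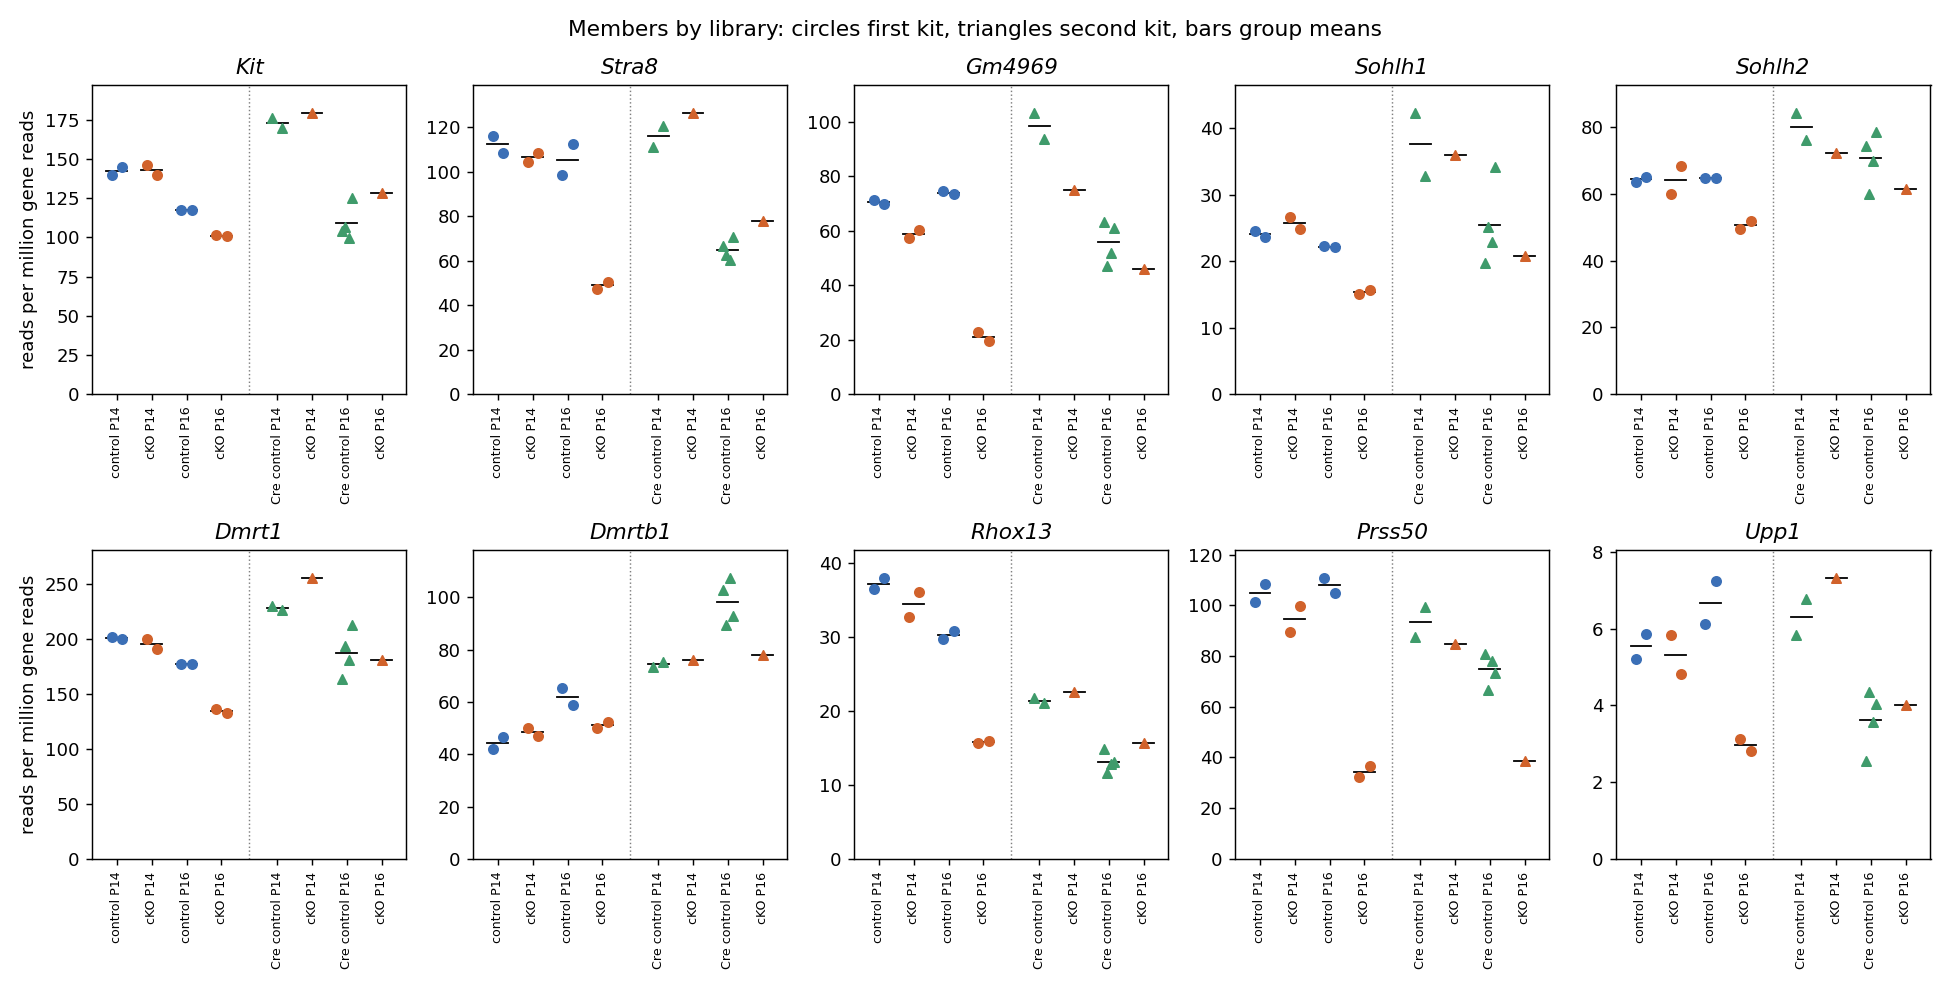
Level of each member, in RPM (y axis), in each of the 16 libraries, by group (x axis). Circles are libraries of the first kit and triangles of the second, and black bars are means; Stra8 in the first kit stood at 98.6 and 112 in P16 controls and at 47.3 and 50.4 in P16 cKO, while the third cKO library at P16 (77.9) lay above the 4 Cre controls.

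At P14, cKO and control libraries of the first kit were compared to ask whether these genes differed soon after the deletion. In limma (on log2(value + 1)), 0 of the 10 members passed an adjusted p of 0.05, and 0.00579% of the 17270 genes tested did. The gene called was Ythdc2 (log2 change -1.60, SE 0.090, limma adjusted p 0.0148). It was not called with no filter (limma adjusted p 0.600) or with eBayes without trend (limma adjusted p 0.665). edgeR and DESeq2 on the recovered reads also called 0 members, and 2 members had an unadjusted limma p under 0.05. These were Gm4969 and Prss50. Gm4969 held 1718 and 1683 in controls and 1392 and 1417 in cKO, a log2 difference of -0.28 (SE 0.056, limma unadjusted p 0.00204, adjusted p 0.9997). Its groups did not overlap. Prss50 held 2445 and 2605 in controls and 2173 and 2344 in cKO, a log2 difference of -0.16 ± 0.064 (SE), with an adjusted p of 0.9997 in limma, also without overlap. Stra8 was at 2807 and 2609.5 in controls and at 2541 and 2542 in cKO, a log2 difference of -0.09 (SE 0.057). Kit differed least, with 3382 and 3493 in controls and 3554 and 3285 in cKO. In 4 of the 10 members both cKO libraries were below both controls, against 14.5% of all genes tested.

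By P16 all 10 members were lower in cKO than in control (limma adjusted p under 0.05). Among the 17986 genes tested, 38.6% were called and 19.9% were called lower (3587 genes lower and 3352 higher). The median log2 change was -0.72 for the members, and -0.00050 for all genes. In each member both cKO libraries lay below both controls, against 35.4% of all genes. In bulk RNA, fewer cells of a type and less RNA per cell cannot be told apart.

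The meiotic entry pair fell strongly. Gm4969, which encodes the partner of STRA8, held 1936 and 1910.3 in controls and 592.9 and 510.6 in cKO. The cKO libraries kept 28.6% of the control level, a log2 difference of -1.80 ± 0.072 (SE), with an adjusted p of 5.73e-09 in limma. Stra8, the retinoic acid-induced gatekeeper of meiosis, held 2560.4 and 2926 in controls and 1236 and 1315 in cKO. It kept 46.6%, a log2 difference of -1.10 ± 0.064 (SE), with an adjusted p of 1.29e-07 in limma. In both genes every cKO library lay far below every control, and the 2 Stra8 controls lay further apart than the 2 Gm4969 controls.

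The 3 markers of differentiating germ cells fell as well. Prss50 held 2877 and 2729 in controls and 839.4 and 950.8 in cKO, and kept 31.9% (log2 change -1.65, SE 0.064, limma adjusted p 5.06e-09). Upp1, whose enzyme acts in uridine salvage, held 159 and 188 in controls and 81.5 and 73.5 in cKO, a log2 difference of -1.15 ± 0.15 (SE), with an adjusted p of 9.21e-05 in limma. Rhox13 held 772.1 and 800.6 in controls and 409.5 and 416.4 in cKO, and kept 52.6% (log2 change -0.93, SE 0.072, limma adjusted p 1.54e-06). Libraries of a group lay close to each other in all 3, with no overlap between groups.

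The spermatogonial transcription factors and the receptor fell less. Sohlh1 and Sohlh2 encode basic helix-loop-helix factors needed for spermatogonial differentiation. Sohlh1 held 576.7 and 574.7 in controls and 394 and 409 in cKO, a log2 difference of -0.52 ± 0.077 (SE), with an adjusted p of 2.08e-04 in limma. Sohlh2 held 1678 and 1685 in controls and 1291 and 1355 in cKO, a log2 difference of -0.35 ± 0.054 (SE), with an adjusted p of 2.88e-04 in limma. Dmrt1, which holds spermatogonia in the mitotic programme, held 4592 and 4602 in controls and 3567 and 3460.3 in cKO, a log2 difference of -0.39 ± 0.043 (SE), with an adjusted p of 2.44e-05 in limma. Dmrtb1, a DM-domain factor of the passage from mitosis to meiosis, held 1691 and 1530.3 in controls and 1311 and 1362 in cKO, a log2 difference of -0.27 ± 0.060 (SE), with an adjusted p of 0.00373 in limma. Kit, the receptor of differentiating spermatogonia, held 3052 and 3066 in controls and 2658 and 2624 in cKO. It kept 86.3%, a log2 difference of -0.21 ± 0.045 (SE), with an adjusted p of 0.00250 in limma, which was the smallest change of the 10 members. Without control library 1 Dmrtb1 was no longer called (-0.20, limma adjusted p 0.0825), in a fit that called 26% of all genes. With eBayes without trend, Kit, Sohlh2 and Dmrtb1 were not called (limma adjusted p 0.0790 for Kit, 0.0514 for Sohlh2 and 0.1002 for Dmrtb1), and 10% of all genes were.

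**Figure D2:**
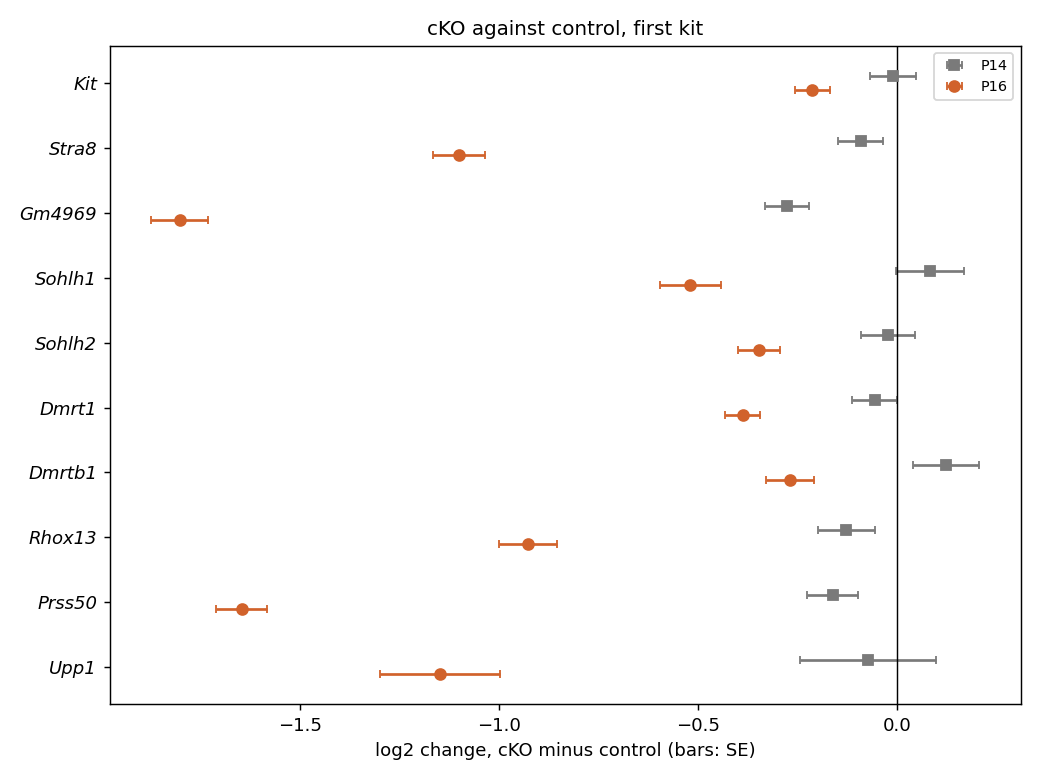
Log2 change of each member, cKO minus control (x axis), in the libraries of the first kit at P14 (grey squares) and P16 (orange circles); bars are standard errors with 2 libraries per group. At P14 the members lie between -0.28 and 0.12, and at P16 between -1.80 and -0.21.

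Whether the cKO difference changed from P14 to P16 was tested as an interaction (limma on log2 CPM, 8 libraries, all of the first kit). Of the 10 members 7 were called, all more negative at P16, against 7.39% of all genes called and 4.49% in this direction. The meiotic entry genes had differences of -1.51 for Gm4969 (SE 0.096, limma adjusted p 1.01e-04) and -0.996 for Stra8 (SE 0.10, limma adjusted p 9.38e-04). Among the markers Prss50 had -1.47, Upp1 -1.06 and Rhox13 -0.79, and among the factors Sohlh1 had -0.59 and Dmrt1 -0.32. The other 3 gave -0.19 for Kit, -0.31 for Sohlh2 and -0.38 for Dmrtb1, with limma adjusted p of 0.130, 0.0595 and 0.0658. The count fell to 4 without control P14 library 2, without either P16 control library or without cKO P16 library 1, and in each case Sohlh1, Dmrt1 and Upp1 were no longer called. Of all genes these 4 fits called 1.54% to 2.23%. Without control P14 library 1 or cKO P16 library 2 it was 5, without Dmrt1 and Upp1, and 3.32% and 3.69% of all genes were called.

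Other genes of the same steps were set beside the members, from lists chosen with earlier results of these data known. These counts compare cKO with control in the first kit at P16, where 38.6% of all genes were called, 19.9% lower. Of 15 other genes of differentiating spermatogonia, 9 were called lower and 2 higher, with a median log2 difference of -0.25. The largest changes were in Rhox10 (-1.24), a homeobox gene, and in Taf4b (-0.81) and Taf7l (-0.78), germ cell forms of general transcription factors. Of 19 genes of undifferentiated spermatogonia that were tested, 9 were called lower and 3 higher (median -0.16). The largest were in the transcription factors Pax7 (-1.17), Lhx1 (1.12) and Sox3 (-0.76). Among 26 genes of early meiotic prophase, the programme that STRA8 and MEIOSIN turn on, 23 were called lower and 1 higher (median -0.54). Mei1 (-1.86) and Prdm9 (-1.63) act in recombination, and Rad21l (-1.59) encodes a meiotic cohesin. The exception was Meioc (1.11), which encodes a partner protein of YTHDC2. At P14 the only gene called in limma against control was Ythdc2, which is in none of these lists. Cre controls gave fewer calls in these lists at P16, where 9.07% of all genes were called. Of the 26 early prophase genes 6 were called lower and 2 higher (median -0.15). Of the 15 genes of differentiating spermatogonia 0 were called lower and 2 higher (median -0.075). Of the 19 genes of undifferentiated spermatogonia 0 were called (median -0.17).

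Genes of the retinoic acid pathway and of KIT signalling moved in both directions. Of 19 genes of the retinoic acid pathway tested against control at P16, 7 were called lower and 3 higher (median -0.14). In that fit 38.6% of all genes were called, 19.9% lower. Lrat, which stores retinol as esters, changed by 1.19, and Rbp4 and Stra6, a retinol carrier and its receptor, by -0.97 and -0.96. Aldh1a2, which makes retinoic acid, changed by -0.48 and Cyp26b1, which degrades it, by 0.63. Rara, the retinoic acid receptor of Sertoli and germ cells, gave 0.07 (limma adjusted p 0.324). Of 15 genes of KIT signalling, 7 were called higher and 1 lower (median 0.11). The largest changes were in the phosphatase gene Ptpn6 (0.62), in Kitl (0.49), the KIT ligand made by Sertoli cells, and in Sos1 (0.41). Kitl stands in the Sertoli list below as well, and Kit itself was lower, as given above. Against Cre controls at P16, 1 of the 19 retinoic acid genes was called, lower in cKO, against 9.07% of all genes. Of the 15 genes of KIT signalling 2 were called higher and 1 lower there.

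Marker genes of other cell types also differed at P16 in the first kit, where 3352 of all 17986 genes tested were called higher. The summed level of 15 Sertoli markers was 5048 and 5283 RPM in controls, and 6022 and 6664 in cKO, with 11 called higher and 0 lower. For 7 macrophage markers the sums were 109 and 113 in controls and 147 and 151 in cKO, with 6 called higher. Of 9 Leydig markers tested 5 were called higher, and the sums were 301 and 307 in controls and 344 and 395 in cKO. Of 5 peritubular markers 1 was called higher, and the sums overlapped (289 to 310.05 against 309.5 to 365). Of 17 markers of pachytene and later spermatocytes, 7 were called higher and 3 lower, with sums of 2522 and 2585 in controls and 2682 and 3000.2 in cKO. None of these markers was at 0 in all libraries. The part of these markers in the changes of the members was not tested.

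The comparison with Cre controls asks the same question with animals that the labels name Cre control. At P14, limma called 0 of the 10 members and 0% of all 18196 genes. Ythdc2 itself was not called there (log2 change -1.57, SE 0.29, limma adjusted p 0.479), so the lack of a call does not show that a gene was unchanged. edgeR and DESeq2 also called 0 members, and 1 member had an unadjusted p under 0.05. This was Gm4969, which held 1915 and 1676 in Cre controls and 1127, 1153 and 1322 in cKO, a log2 difference of -0.58 ± 0.13 (SE), with an adjusted p of 0.479 in limma. Every cKO library lay below both Cre controls for 3 members, against 14.8% of all genes. Without cKO library 3, the only cKO library of the second kit, 3 members were called: Gm4969 (-0.65), Dmrtb1 (-0.52) and Rhox13 (0.77). That fit called 34.9% of all genes, so the members' share was near that of all genes. In it all cKO libraries were of the first kit and all Cre controls of the second, so kit and deletion cannot be told apart. Within the first kit at P14, Rhox13 differed by -0.13, Dmrtb1 by 0.12 and Gm4969 by -0.28. Within the second kit, with 1 cKO library, they differed by 0.019, -0.021 and -0.45.

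At P16, 2 of the 10 members were called, both lower in cKO, against 9.07% of 19200 genes called and 4.77% called lower. Prss50 held 1599, 1324, 1579 and 1448 in Cre controls and 687.5, 783.8 and 755.7 in cKO, which kept 50.01% of the Cre control level (log2 scale, SE 0.097, limma adjusted p 0.0367). All 3 cKO libraries lay well below the 4 Cre controls. Of all genes, 16.9% had every cKO library below every Cre control. Dmrtb1 held 2029, 1776, 2170.2 and 1836 in Cre controls and 1074, 1123 and 1523 in cKO, a log2 difference of -0.67 ± 0.14 (SE), with an adjusted p of 0.0408 in limma. Its highest cKO library, the third, was the closest to the Cre controls. Gm4969 held 1253, 935.7, 1050.3 and 1203 in Cre controls and 485.6, 420.9 and 893.4 in cKO, a log2 difference of -0.96 ± 0.25 (SE), with an adjusted p of 0.0521 in limma. Here too the third cKO library was closest to the Cre controls. Stra8 held 1318, 1240.4, 1216 and 1397 in Cre controls and 1013, 1084 and 1521 in cKO. Its cKO libraries of the first kit lay below all 4 Cre controls and the third lay above all 4, and the log2 change was -0.12 (SE 0.15, limma adjusted p 0.567). Rhox13 was at 293, 231, 258.7 and 258.7 in Cre controls and at 335, 343 and 304 in cKO. Every cKO library lay above every Cre control, against 13.2% of all genes. Of these, cKO libraries 1 and 2 were of the first kit, where Rhox13 was lower in cKO than in control (-0.93). Against Cre controls the log2 difference of Rhox13 was 0.33 ± 0.12 (SE), with an adjusted p of 0.0837 in limma. When Cre control library 1, 2, 3 or 4, or cKO library 1 or 2, was left out, limma called 0 members and 0% of all genes. Without cKO library 3, 8 members were called, against 49.5% of all genes, in a fit where kit and deletion cannot be told apart. Rhox13 was among them and was higher in cKO (0.39). With the kit as a covariate 0 members were called, against 0.00521% of all genes. In that fit Prss50 changed by -0.97 (limma adjusted p 0.0939), and Dmrtb1 by -0.35, a smaller change than the -0.67 without the covariate.

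The third cKO library allowed a comparison with Cre controls of the same kit. At P16 Ythdc2 stood at 226 in this library and at 1711, 1392, 2633 and 1597 in the Cre controls. Prss50, at 755.7, held 51.0% of the Cre control level and lay below all 4. Gm4969 held 81.0% and Dmrtb1 78.3%, and both also lay below all 4 Cre controls. Kit, Stra8 and Rhox13 lay above all 4, at 116%, 118% and 117% of the Cre control level. So 3 members lay below and 3 above every Cre control, against 30% and 24% of all genes. Of the Cre controls only library 1 shared a sequencing run with the third cKO library. Against library 1, this cKO library differed on the log2 scale by -1.08 in Prss50, -0.49 in Gm4969, -0.41 in Dmrtb1 and -0.29 in Sohlh2. It stood higher by 0.62 in Upp1, 0.28 in Kit, 0.21 in Stra8 and 0.13 in Dmrt1, and by 0.055 in Rhox13 and in Sohlh1. Against the mean of all 4 Cre controls, Dmrt1 and Sohlh1 were lower (-0.074 and -0.29). The summed Sertoli markers were 5927 to 7408 RPM in the 4 Cre controls and 7515 in the third cKO library. Those of pachytene and later spermatocytes were 2084 to 3828 and 2206, and their part in these differences was not tested. At P14 4 members lay below both Cre controls and 3 above, against 33.3% and 26.9% of all genes, and Gm4969 differed most, with 73.8% of the Cre control level.

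In a limma fit over the 9 P16 libraries of both kits, each cKO group was set against the control of its own kit. Within the first kit 5 members were called lower, against 7.12% of all genes: Prss50, Gm4969, Stra8, Rhox13 and Upp1. Within the second kit 1 was called, against 1.83% of all genes: Prss50, at a log2 difference of -0.96 ± 0.12 (SE), with an adjusted p of 0.0302 in limma. This call rests on 1 cKO library and on the spread of the other groups, and it was not made in the fit of the Cre control table with the kit as a covariate (adjusted p 0.0939 in limma). The difference between the kits was itself tested, as a comparison added after the data were seen. It was called for 2 members against 0.0452% of all genes, and it rests on the same single cKO library of the second kit. Stra8 changed by -1.10 in the first kit and by 0.25 in the second, a difference of -1.35 (SE 0.15, limma adjusted p 0.0171). Gm4969 changed by -1.80 and -0.29, a difference of -1.51 (SE 0.20, limma adjusted p 0.0485). For Rhox13 (-0.93 and 0.25) the difference was -1.17 (limma adjusted p 0.0684), and for Prss50 (-1.65 and -0.96) it was -0.69 (limma adjusted p 0.174). Neither difference was called without either control, without cKO library 1 or 2, or without Cre control library 3, and these 5 fits called 0% to 0.00507% of all genes. When both kits were pooled to 1 cKO effect with the kit as a covariate, 3 members were called lower, against 13.6% of all genes: Prss50, Gm4969 and Dmrtb1. In that fit Stra8 changed by -0.50 (limma adjusted p 0.131) and Kit by -0.014 (limma adjusted p 0.938). At P14 the same test of the difference between the kits called 0 members in limma, and 0 had an unadjusted p under 0.05.

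**Figure D3:**
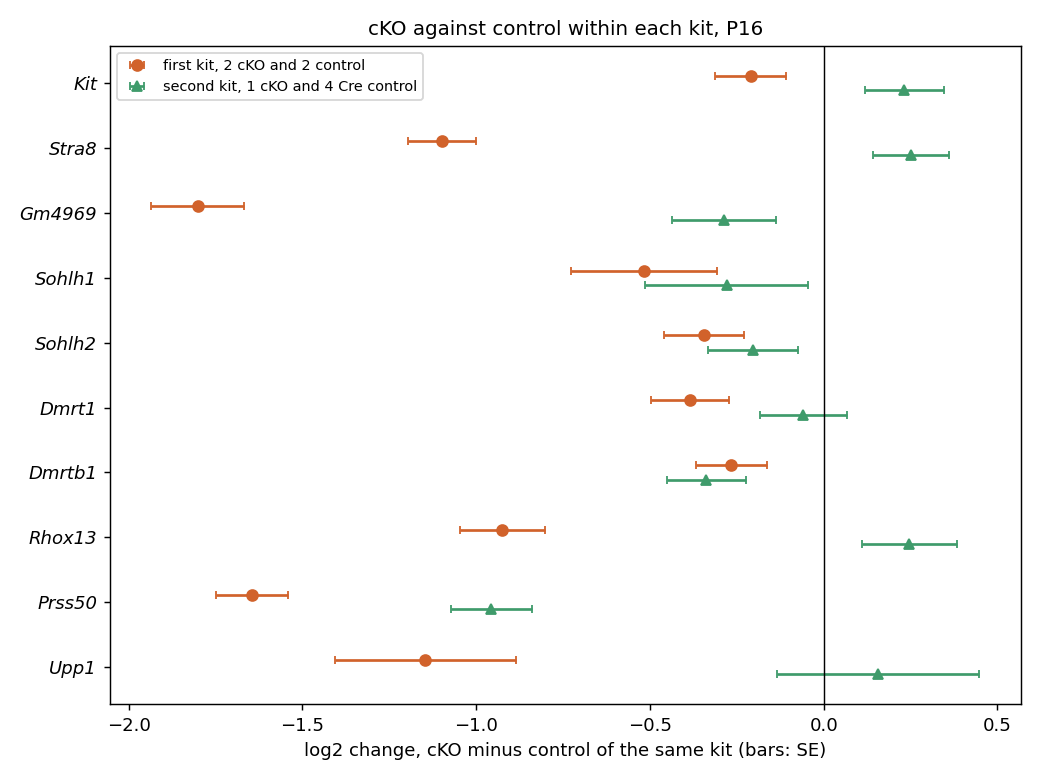
Log2 change of each member at P16 (x axis), cKO minus the control of the same kit, for the first kit (orange circles, 2 cKO and 2 control libraries) and the second kit (green triangles, 1 cKO and 4 Cre control libraries); bars are standard errors. Prss50 lies to the left of 0 in both kits (-1.65 and -0.96), whereas Stra8 lies at -1.10 in the first and at 0.25 in the second.

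The change from P14 to P16 was then compared within each group, on log2 CPM, in the same libraries as the comparisons above. In controls 4 members changed, against 20% of all genes called, 13.3% higher and 6.67% lower: Dmrtb1 rose by 0.49 (limma adjusted p 0.00201), and Kit (-0.28), Rhox13 (-0.30) and Dmrt1 (-0.18) fell. The count was 3 without control P14 library 1, where Dmrt1 was not called, and 2 without control P14 library 2 or either P16 control library, where Dmrt1 and Rhox13 were not. These 4 fits called 8.9% to 14.1% of all genes. Stra8 and Gm4969 gave -0.09 and 0.07 in controls (limma adjusted p 0.414 and 0.512). In the cKO libraries of the first kit 9 members fell, against 29.8% of genes called and 13.8% called lower. The largest falls were in Gm4969 (-1.44, SE 0.068), Prss50 (-1.43, SE 0.073), Stra8 (-1.09, SE 0.072) and Rhox13 (-1.08, SE 0.067). Dmrtb1 gave 0.11 there (limma adjusted p 0.312).

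Cre controls also had lower levels of the meiotic entry pair at P16. In RPM, Stra8 was at 111 and 121 in the Cre controls at P14 and at 66.7, 62.5, 60.2 and 70.7 at P16. Of the 10 members 4 fell and 1 rose, against 11.8% of all genes called, 2.82% lower and 8.97% higher. The log2 changes were -0.82 for Stra8 (SE 0.097, limma adjusted p 8.65e-04), -0.81 for Gm4969 (SE 0.13), -0.70 for Rhox13 (SE 0.14), -0.66 for Kit (SE 0.10) and 0.41 for Dmrtb1 (SE 0.10). Prss50 gave -0.31 (limma adjusted p 0.0946), with 87.5 and 99.4 RPM at P14 and 66.8 to 80.8 at P16. Without Cre control P14 library 1 only Stra8 and Kit of these 5 were called, against 3.08% of all genes, and without P16 library 3 Dmrtb1 and Rhox13 were not, against 5.62%. Dmrtb1 was also not called without P14 library 2 (limma adjusted p 0.0850) or P16 library 1 (limma adjusted p 0.0528), nor with eBayes without trend (limma adjusted p 0.109). Both P14 libraries and P16 library 1 came from one flow cell, per the file headers, and P16 libraries 2, 3 and 4 from another, so that stage and flow cell largely coincide in this group. On the shared flow cell alone, a comparison added after the data were seen and with no test, log2 RPM changed from P14 to P16 by -0.80 for Stra8, -0.64 for Gm4969, -0.53 for Rhox13, -0.73 for Kit and 0.47 for Dmrtb1.

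The difference in stage change between controls and Cre controls was tested after the data were seen. It called 0 members and 0% of all genes in limma, 0 members in edgeR, and 6 members at an unadjusted p under 0.05, against 10.5% of all genes. The values were 0.78 for Stra8 (SE 0.12, limma adjusted p 0.0835) and 0.93 for Gm4969 (SE 0.16, limma adjusted p 0.160). Both were called without Cre control P14 library 2, P16 library 1 or P16 library 4, where 2.71%, 0.0543% and 0.124% of all genes were called. Markers of pachytene and later spermatocytes rose from P14 to P16 in all groups, with 16 of 17 called in each. Their median log2 change was 1.32 in controls, 1.42 in cKO and 2.27 in Cre controls. The part of this in the members' change was not tested.

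**Figure D4:**
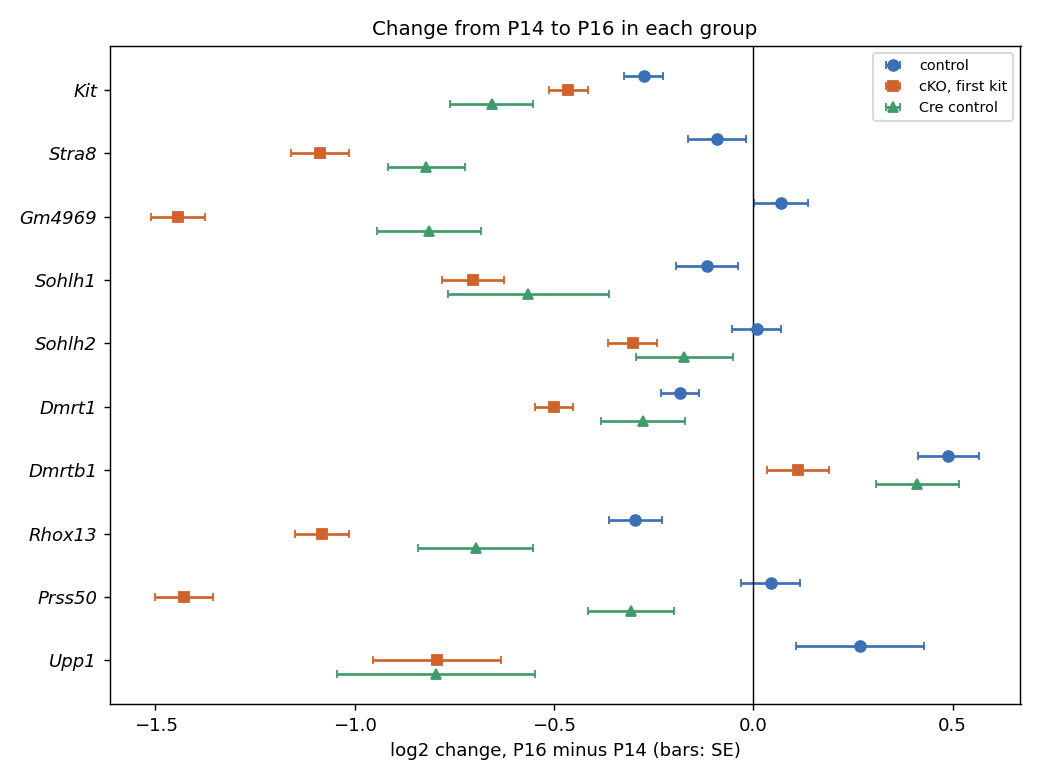
Log2 change from P14 to P16 (x axis) of each member in controls (blue circles), in cKO libraries of the first kit (orange squares) and in Cre controls (green triangles); bars are standard errors. Stra8 lies at -0.09 in controls, -1.09 in cKO and -0.82 in Cre controls, and Dmrtb1 lies to the right of 0 in all 3.

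Across the 8 libraries of the first kit, which share kit and run and fall into 4 groups, the members differed in pattern. Pearson's r was taken on log2 RPM over 11202 protein-coding genes with at least 100 reads in each library, as a description. The genes most like Stra8 were Ptpn12 (r = 0.998), M1ap (r = 0.998) and Hist1h1a (r = 0.997). Among the members, Prss50 (0.981), Rhox13 (0.980) and Gm4969 (0.972) were most like Stra8, but ranked only 189, 215 and 330 among all genes compared. The genes most like Kit were Nes (r = 0.994), Mex3a (r = 0.992) and Mga (r = 0.992). Dmrt1 (0.956, rank 163) and Sohlh1 (0.931, rank 392) were the members most like Kit, and Dmrtb1 was unlike both Stra8 (-0.096) and Kit (-0.485). Upp1 had under 100 reads in some libraries and was not compared.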

How the data were processed

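RNA was sequenced from 16 testis libraries after rRNA depletion, per the labels' protocols. The authors deposited 4 tables of normalized counts, each scaled on its own. Trim Galore, STAR, HTSeq, DESeq2 and build GRCm39 are named in the submitters' processing notes, with versions, annotation and strand setting not given in the sources used here. Their values are a signal that the authors made by dividing the reads of each gene by a size factor, as deposited. In all 20 columns, 100% of the deposited values were whole multiples of 1 read (tolerance 0.01 reads), and cKO libraries 1 and 2 had identical reads in both tables of a stage. Symbols were taken from GENCODE M21 (52081 of 55414 IDs), which is another build, so no gene coordinates are given.

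The test was limma 3.58.1 (eBayes with trend, R 4.3.3) on log2(value + 1), which understates changes of low genes, over genes that reached a value of 10 in 2 or more libraries. Comparisons across tables used log2 CPM of the recovered reads (TMM, prior count 1). P-values were adjusted by Benjamini-Hochberg over all genes, and genes under 0.05 are termed called. edgeR 4.0.16 and DESeq2 1.42.0 on the recovered reads, other pseudocounts, filters and scalings, a kit covariate, a replicate block and leaving out each library were alternatives. The scripts were tested on simulated data. The members and the lists were chosen with earlier results of these data known. All members are named, Ythdc2, the 3 genes of each list of germ cell, retinoic acid or KIT genes with the largest change at P16, 5 genes of retinoic acid and KIT signalling and MEIOC, and the 3 genes most like Stra8 and Kit.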

Additional observations from a re-analysis of the deposited data

Results flagged for a closer look

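The cKO difference changed between P14 and P16 in the libraries of the first kit for 7 members and for Ythdc2, by an interaction test (limma on log2 CPM). Of all genes 7.39% were called, and 4.49% in this direction. With a library left out 4 to 9 members were called, against 1.54% to 17.3% of all genes. The differences, P16 minus P14, were -1.51 for Gm4969, -1.47 for Prss50, -1.06 for Upp1, -0.996 for Stra8, -0.79 for Rhox13, -0.59 for Sohlh1, -0.32 for Dmrt1 and -0.72 for Ythdc2. At P16 the cKO difference between the kits passed the test for Stra8 (-1.35) and Gm4969 (-1.51), against 0.0452% of all genes. It rests on 1 cKO library of the second kit, neither call was made in 5 of the 8 fits with a library left out, and the kits differ in control type as well. In the 4 Cre control libraries at P16, no library stood apart from the other 3 in any of 11 genes tested by Dixon's ratio. Smaller groups, the cKO libraries among them, were not tested this way.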

How the results depend on the processing

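With 2 libraries per group in the first kit and 1 cKO library in the second, small changes in members with few reads, above all Upp1, were not detectable. In cKO against control at P14, 0 members were called in each alternative run, against 0% to 0.0645% of all genes. At P16, 9 to 10 were called with a library left out (26% to 40.1% of all genes). In the fit over both control types with kit as a covariate, 3 were called (0 higher), against 13.6% of all genes. Against Cre controls at P14, leaving out a library gave 0 to 3 (0% to 34.9% of all genes). Against Cre controls at P16, 1 member was called with eBayes without trend (0.167% of all genes) and 5 by DESeq2 (21.8%). Rhox13 was among these 5 and was higher in cKO (0.35). The same comparison gave 0 with kit as a covariate and 0 to 8 with a library left out (0% to 49.5%). For the interaction, eBayes without trend gave 4 (0.727% of all genes), and leaving out a library 4 to 9 (1.54% to 17.3%). For the stage change, controls gave 2 to 3 with a library left out (8.9% to 14.1% of all genes). Cre controls gave 0 with no filter (0.146%) and 2 to 6 with a library left out (3.08% to 14.8%). The difference between kits at P16 gave 1 member with at least 50 reads (0.0268% of all genes) and 0 to 3 with a library left out (0% to 0.697%). That of the stage changes of both control types gave 0 to 2 with a library left out (0% to 2.71%). The causes were not tested.

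Whether the replicate numbers pair the libraries cannot be told from these data. Deviations of same-numbered libraries of controls and cKO had r of 0.203 at P14 and 0.0798 at P16. With 2 libraries per group the deviations mirror each other, so each r is a single value. In the comparisons with Cre controls r was -0.233 to 0.304. With the replicate block, 4 members were called against Cre controls at P14 (38.3% of all genes), 0 at P16 (0%) and 9 in the interaction (15%), and 0 and 10 against controls at P14 and P16 (0.029% and 45.6%). In the stage change of Cre controls the block gave 4 (9.57%), without Dmrtb1 (limma adjusted p 0.194) and Rhox13 (limma adjusted p 0.0661).

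The sign turned in an alternative for 14 changes, of which 0 were called. Against control at P14, Dmrt1 (0.0071) and Upp1 (0.0197) turned in the fit over both control types with kit as a covariate. With a library left out, Kit ranged from -0.065 to 0.048, Sohlh2 from -0.092 to 0.049, Dmrt1 from -0.11 to 0.0014 and Upp1 from -0.24 to 0.089. Against Cre control at P14, the kit as a covariate turned Kit (0.0075), Dmrt1 (0.12), Prss50 (-0.19) and Upp1 (0.17), and the replicate block turned Stra8 (-0.030). With a library left out, Stra8 ranged from -0.030 to 0.036, Dmrt1 from -0.14 to 0.018, Prss50 from -0.066 to 0.11 and Upp1 from -0.15 to 0.090. At P16, the kit as a covariate turned Stra8 (0.24) and Upp1 (0.14), the replicate block turned Upp1 (0.0021), and with a library left out Upp1 ranged from -0.21 to 0.038. In the stage change of controls, Sohlh2 turned with at least 50 reads (-0.0010), and with a library left out Sohlh2 ranged from -0.0015 to 0.018 and Stra8 from -0.18 to 0.0069. In the difference between kits, Dmrtb1 ranged from -0.016 to 0.13 with a library left out.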
